A study of Mus musculus with 12 samples.

Results

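The Ly6 genes described here are Ly6a, Ly6c1, Ly6c2, Ly6d, Ly6e and Ly6i, 6 of the 21878 rows of a table of gene expression in sorted mouse alveolar type 2 (AT2) cells. They were found by gene name in the table, and all 6 names matched. The set was put together around Ly6a, which encodes the surface protein Sca-1 and was chosen by its measured FPKM, which were much higher in AT2 cells of bleomycin-treated mice than in those of PBS-treated mice, both with wild type Atg5. That comparison therefore describes the genes and carries no test for them, and neither does any comparison of Ly6a that uses the libraries behind this choice. All 6 genes stood at 1 FPKM (fragments counted per unit of transcript length and of library size) or more in all 12 libraries, so none of them depended on the filter on low values.

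Ly6 proteins are small, cysteine-rich proteins that most often sit on the outer face of the plasma membrane on a glycosylphosphatidylinositol (GPI) anchor. In the mouse, Sca-1 is a long-used surface marker of blood stem cells and of progenitors in several tissues, Ly6C (the products of Ly6c1 and Ly6c2) marks classical monocytes and is also found on endothelium, and several genes of the family are induced by interferons. AT2 cells, which make surfactant and renew the alveolar epithelium, were taken for this study as cells without Sca-1 on their surface.

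RNA sequencing covered 4 groups of 3 libraries each, all from C57BL/6 mice. AT2-PBS and AT2-BLM cells came from Atg5 f/f mice (labelled wild type) given PBS or bleomycin (BLM), and the corresponding Atg5-/- cells (Atg5-/- AT2-PBS with PBS, Atg5-/- AT2-BLM with BLM) came from Nkx2.1Cre; Atg5 f/f mice, so that both floxed alleles were present in every group and Cre in the Atg5-/- groups. Per the study's methods, BLM, which damages DNA and injures alveoli, was instilled into the trachea at 2 U/kg, the mice were males of 8 to 12 weeks, and the sort kept EpCAM+ cells without CD31, CD34, CD45, CD24 and Sca-1. Day 14 is given for 3 of the groups, and no day was found for Atg5-/- AT2-PBS. Nkx2.1Cre acts in the developing lung epithelium as a whole, airway cells included, and is not restricted to AT2 cells. The series describes the 3 libraries of a group as biological replicates, and nothing more is given on which animals they came from.

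Several libraries stood apart before any comparison. Atg5 itself was at 6.01 to 12.5 FPKM in AT2-PBS and at 6.72 to 10.1 FPKM in Atg5-/- AT2-PBS, and since the floxed allele loses only part of the gene, a value over the whole gene does not check the genotype labels. Sftpc, the defining AT2 surfactant gene, was listed at 0 in 11 of the 12 libraries and at 112570 FPKM in AT2-BLM replicate 2, while the 11 other AT2 markers of the list used passed the filter. Although male mice were stated, the summed FPKM of the Y-linked genes Eif2s3y, Ddx3y, Kdm5d and Uty lay between 0.0552 and 0.733 in 7 libraries and between 14.2 and 20.9 in the other 5 (AT2-PBS replicates 2 and 3, AT2-BLM replicate 3, and Atg5-/- AT2-BLM replicates 2 and 3). Among transcripts that the sort should remove, Ptprc and Cd24a were highest in Atg5-/- AT2-PBS: the leukocyte gene Ptprc (CD45) was at 7.54 to 8.46 FPKM there and at 0.0119 to 0.621 FPKM in AT2-PBS, and the gate gene Cd24a at 25.7 to 35.8 against 5.65 to 11.0 FPKM. The steps of low values put the depths of the libraries at 0.930 to 1.15 times that of AT2-PBS replicate 1, and the absolute depth is unknown.

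In the mm9 annotation, the 6 genes lie on chromosome 15, with Ly6d at 74592486 to 74593997 on the minus strand apart from the others. Ly6e, at 74785481 to 74790335 on the plus strand, starts 191 kb after Ly6d ends. Ly6i (74810242 to 74813860), Ly6a (74825308 to 74828064), Ly6c1 (74875447 to 74879260) and Ly6c2 (74938590 to 74942114) follow it on the minus strand, and Ly6e to Ly6c2 span 157 kb. Their coding sequences differ in how alike they are. Those of Ly6c1 and Ly6c2 were 97.7% identical over 396 bases, Ly6a and Ly6i were 86.4% identical, and Ly6a and Ly6c1 82.0%, whereas Ly6d and Ly6e were only 47.1% to 53.8% identical to any other gene of the set.

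The first 100 bases of the Ly6c1 and Ly6c2 coding sequences are shown because bases at which the genes differ (capitals) are what lets a read within them be given to the correct gene. They hold 6 of the 9 differing bases and were taken 5′ to 3′ from the GENCODE vM1 transcripts of mm9.
Ly6c1: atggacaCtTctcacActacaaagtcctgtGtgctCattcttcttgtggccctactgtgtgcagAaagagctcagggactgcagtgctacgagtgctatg
Ly6c2: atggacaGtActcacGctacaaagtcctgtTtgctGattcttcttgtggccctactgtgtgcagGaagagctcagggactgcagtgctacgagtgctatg
The other 3 lie further on, the last at base 376, and long stretches between them are the same in both genes. Over whole transcripts, 31.9% of the distinct 50-base stretches of Ly6c1 also occurred in another protein-coding gene, Ly6c2, and 34.1% of those of Ly6c2 occurred in other genes. The share was 4.42% for Ly6a and 3.76% for Ly6i, mostly with each other, and 0 for Ly6d and Ly6e. How reads that fit both Ly6c genes were divided between them is not given in the sources used here, so their values carry this uncertainty.

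Outside the coding sequence the pair is less alike. The 250 bases before the start of each gene, from RefSeq on GRCm38.p6, were 57.7% identical when aligned end to end, with gaps counted. They are shown with every stretch of 10 or more bases that occurs in both windows in capitals. This marks 6 runs in Ly6c1 and 7 in Ly6c2, because shared stretches that overlap in Ly6c1 merge into a longer run. The longest stretch found whole in both windows has 20 bases.
Ly6c1, minus strand of chr15:75048838-75049087: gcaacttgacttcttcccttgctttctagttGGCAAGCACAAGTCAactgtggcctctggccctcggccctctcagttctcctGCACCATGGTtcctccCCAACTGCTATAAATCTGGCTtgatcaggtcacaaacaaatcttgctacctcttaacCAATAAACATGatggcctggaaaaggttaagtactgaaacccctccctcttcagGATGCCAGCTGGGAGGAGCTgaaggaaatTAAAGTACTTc
Ly6c2, minus strand of chr15:75111972-75112221: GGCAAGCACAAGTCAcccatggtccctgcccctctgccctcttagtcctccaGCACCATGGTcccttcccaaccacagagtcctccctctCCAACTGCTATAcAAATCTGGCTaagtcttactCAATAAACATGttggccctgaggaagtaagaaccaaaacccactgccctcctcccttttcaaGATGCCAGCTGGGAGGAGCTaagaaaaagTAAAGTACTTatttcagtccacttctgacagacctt
The 4 RefSeq windows of 300 bases for these genes, each reaching 50 bases past a start, were searched on both strands for the letters of the interferon-gamma activated site, TTCNNNGAA, and of the interferon-stimulated response element, searched as GAAA, any 2 bases and GAAA. Neither was in any of them, and they were in 8.30% and 3.44% of the 32851 windows of that table. Windows for Ly6a, Ly6d, Ly6e and Ly6i were not used here.

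Ly6a, the Sca-1 gene, was low in AT2-PBS and high in the 3 other groups. It stood at 14.8, 16.8 and 7.36 FPKM in AT2-PBS replicates 1, 2 and 3 and at 325, 777 and 649 FPKM in AT2-BLM. Atg5-/- AT2-PBS held 636, 754 and 368 FPKM, and in Atg5-/- AT2-BLM at 984, 515 and 63.1 FPKM. The highest AT2-PBS library was thus below the lowest library of each other group, including Atg5-/- AT2-BLM replicate 3, which was itself far below every AT2-BLM and Atg5-/- AT2-PBS library. The group means were 12.98 ± 4.97 FPKM in AT2-PBS, 583 ± 233 in AT2-BLM, 586 ± 198 in Atg5-/- AT2-PBS and 521 ± 461 in Atg5-/- AT2-BLM (SD, n = 3 each). The ratio of means was 44.9-fold for AT2-BLM over AT2-PBS and 45.2-fold for Atg5-/- AT2-PBS over AT2-PBS, and both share the AT2-PBS libraries through which Ly6a was chosen, so neither is tested. In these bulk libraries, more cells with Ly6a and more Ly6a RNA per cell cannot be told apart. The cells were gated as negative for the Sca-1 protein, of which these files hold no measure. During BLM injury the study also saw alveolar cells with Sca-1, whose colony formation did not differ from that of AT2 cells.

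The comparison that could be tested for Ly6a was BLM against PBS in Atg5-/- cells. There the difference of mean log2(FPKM + 1) was -0.82 with a standard error of 0.78 and a 95% confidence interval from -2.50 to 0.87, which spans 0 (limma, Benjamini-Hochberg adjusted p = 0.62). In wild type cells the same treatment gave a difference of 5.37, described without a test. The difference in Atg5-/- cells rests on Atg5-/- AT2-BLM replicate 3: it was 0.34 without it, and without replicate 1 of that group it was -1.63 and called.

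Ly6e and Ly6i, neighbours 19.9 kb apart, were uneven among the replicates of AT2-BLM and of Atg5-/- AT2-PBS. Ly6e, a GPI-anchored protein known for its induction by interferon and its effects on virus entry, had the highest mean level per length of the 6 genes in every group, at 586 ± 120 FPKM in AT2-PBS, 809.98 ± 728 in AT2-BLM, 1135 ± 982 in Atg5-/- AT2-PBS and 607 ± 360 in Atg5-/- AT2-BLM (SD, n = 3 each). It stood at 573, 473 and 711 FPKM in AT2-PBS replicates 1, 2 and 3 and at 1546, 794 and 89.7 FPKM in AT2-BLM. Its values in Atg5-/- AT2-PBS were 2224, 860.3 and 319 FPKM, and in Atg5-/- AT2-BLM at 317, 493 and 1009.7 FPKM. The ranges of every pair of groups that follow each other in the order of means overlapped, and AT2-BLM alone spanned 17.2-fold. No comparison of Ly6e that was tested was called. Its log2 difference was 0.55 in Atg5-/- AT2-PBS against AT2-PBS (95% confidence interval -1.43 to 2.54), -0.65 in Atg5-/- AT2-BLM against Atg5-/- AT2-PBS (-2.63 to 1.33) and 0.17 in Atg5-/- AT2-BLM against AT2-BLM (-1.81 to 2.15), so that changes of several-fold in either direction lay within the intervals.

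Ly6i, a close relative of Ly6a by sequence, was low and even in AT2-PBS and spread 209-fold in AT2-BLM, 22.9-fold in Atg5-/- AT2-PBS and 6.16-fold in Atg5-/- AT2-BLM. It stood at 5.20, 4.81 and 4.81 FPKM in AT2-PBS replicates 1, 2 and 3 and at 242, 80.2 and 1.16 FPKM in AT2-BLM. Without Atg5 the PBS libraries stood at 332, 79.0 and 14.5 FPKM, and in Atg5-/- AT2-BLM at 10.1, 34.1 and 62.3 FPKM. All 6 Atg5-/- libraries were above all 3 AT2-PBS libraries, whereas AT2-BLM replicate 3 was below them. Against AT2-PBS, the log2 difference of Atg5-/- AT2-PBS was 3.65 with a standard error of 1.47 and was called, with a limma adjusted p of 0.16 that misses the threshold after adjustment. The difference stayed positive, but the call was lost in 5 of the 6 fits that left out a library of these groups and with the Y-linked transcripts as a covariate (2.75). The other tested differences of Ly6i, -1.35 with BLM in Atg5-/- cells and -0.26 with Atg5 loss under BLM, were not called, and their intervals ran from -4.55 to 1.84 and from -3.46 to 2.93.

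Ly6e and Ly6i varied together among the replicates of most groups. The order of the 3 replicates was the same for both genes in 3 of the 4 groups, replicates 1, 2, 3 from high to low in AT2-BLM and in Atg5-/- AT2-PBS, and 3, 2, 1 in Atg5-/- AT2-BLM. Ly6d had the same order as the pair in AT2-BLM and in Atg5-/- AT2-PBS, and Ly6c1 and Ly6c2 had it in Atg5-/- AT2-PBS. Ly6i was between 0.677% and 1.02% of Ly6e in AT2-PBS and between 1.29% and 15.7% in the other groups. This likeness was noticed in the values and is given without a test.

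**Figure D1:**
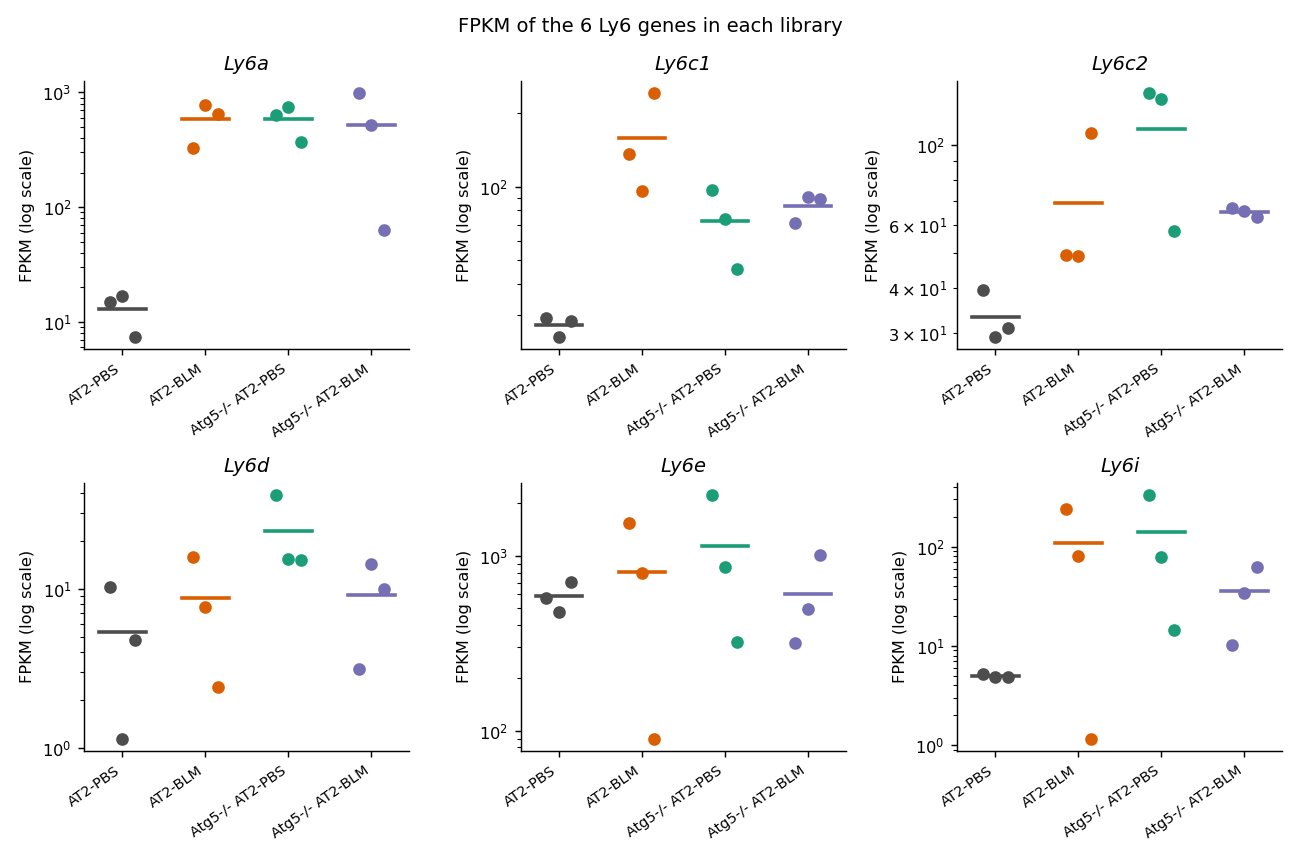
FPKM of each gene (log scale) in the 12 libraries, by group, in the order of replicates 1 to 3 from left to right, with horizontal lines at the group means. The AT2-PBS points of Ly6a, at 7.36 to 16.8 FPKM, lie below all points of the other groups, and the Ly6e and Ly6i points of AT2-BLM and of Atg5-/- AT2-PBS fall in the same order.

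Ly6c1 and Ly6c2, which encode the near-identical forms of Ly6C, were both low in AT2-PBS. Ly6c1 stood at 28.9, 24.3 and 28.1 FPKM in AT2-PBS replicates 1, 2 and 3 and at 137, 95.7 and 241 FPKM in AT2-BLM. The Atg5-/- AT2-PBS libraries stood at 96.9, 73.7 and 46.1 FPKM, and in Atg5-/- AT2-BLM at 70.9, 90.5 and 89.0 FPKM. Every AT2-PBS library lay below every library of the other groups, and every AT2-BLM library lay above every Atg5-/- AT2-BLM library. The means were 27.1 ± 2.48 FPKM in AT2-PBS and 158 ± 75.0 in AT2-BLM, and 72.2 ± 25.4 and 83.5 ± 10.9 in the Atg5-/- groups with PBS and with BLM (SD, n = 3 each).

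Ly6c1 rose in Atg5-/- AT2-PBS against AT2-PBS, by 1.32 on the log2 scale (standard error 0.31, limma adjusted p = 0.014). It was called lower in Atg5-/- AT2-BLM than in AT2-BLM, by a log2 difference of -0.81 (95% confidence interval -1.49 to -0.13), but the limma adjusted p was 0.62, and the call was lost without AT2-BLM replicate 3 (-0.46), without Atg5-/- AT2-BLM replicate 1 (-0.70) and with scaling to Cdh1 (-0.64). BLM in Atg5-/- cells gave a log2 difference of 0.26 (95% confidence interval -0.42 to 0.94, not called), while the description in wild type cells was 2.40.

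Ly6c2 stood at 39.4, 29.2 and 30.9 FPKM in AT2-PBS replicates 1, 2 and 3 and at 49.3, 49.0 and 108 FPKM in AT2-BLM. Atg5-/- AT2-PBS libraries had 139, 134 and 57.8 FPKM, and in Atg5-/- AT2-BLM at 66.9, 65.4 and 63.1 FPKM. The AT2-PBS libraries were again below all others, but here the highest mean was that of Atg5-/- AT2-PBS (110.5 ± 45.7 FPKM, SD, n = 3), above AT2-BLM (68.8 ± 34.0) and Atg5-/- AT2-BLM (65.1 ± 1.87), with overlapping ranges. Ly6c2 rose in Atg5-/- AT2-PBS against AT2-PBS by 1.61 on the log2 scale (standard error 0.34, limma adjusted p = 0.0074), and this call, like that of Ly6c1, was made under every alternative tried. Its difference with BLM in Atg5-/- cells was -0.65 (95% confidence interval -1.399 to 0.10) and not called, and became -1.06 and called without Atg5-/- AT2-PBS replicate 3. Under BLM, Atg5 loss gave 0.03 (95% confidence interval -0.72 to 0.77).

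The balance of the pair differed between PBS and BLM. The ratio of Ly6c1 to Ly6c2 in a library, which no scaling of whole libraries can move, was 0.733, 0.830 and 0.908 in AT2-PBS and 0.696, 0.549 and 0.797 in Atg5-/- AT2-PBS. It was 2.77, 1.95 and 2.23 in AT2-BLM and 1.06, 1.38 and 1.41 in Atg5-/- AT2-BLM. Ly6c2 thus exceeded Ly6c1 in all 6 PBS libraries and Ly6c1 exceeded Ly6c2 in all 6 BLM libraries. The mean log2 ratio was higher by 0.92 with BLM in Atg5-/- cells, where the exact two-sided permutation test gave p = 0.1 over 3 against 3 libraries, the smallest p this design allows. In wild type cells it was higher by 1.48, given without a test. The ratio was chosen after the values were seen, so this p is no independent test of the difference. The ratio shows unequal change of the genes under the unknown division of shared reads.

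**Figure D2:**
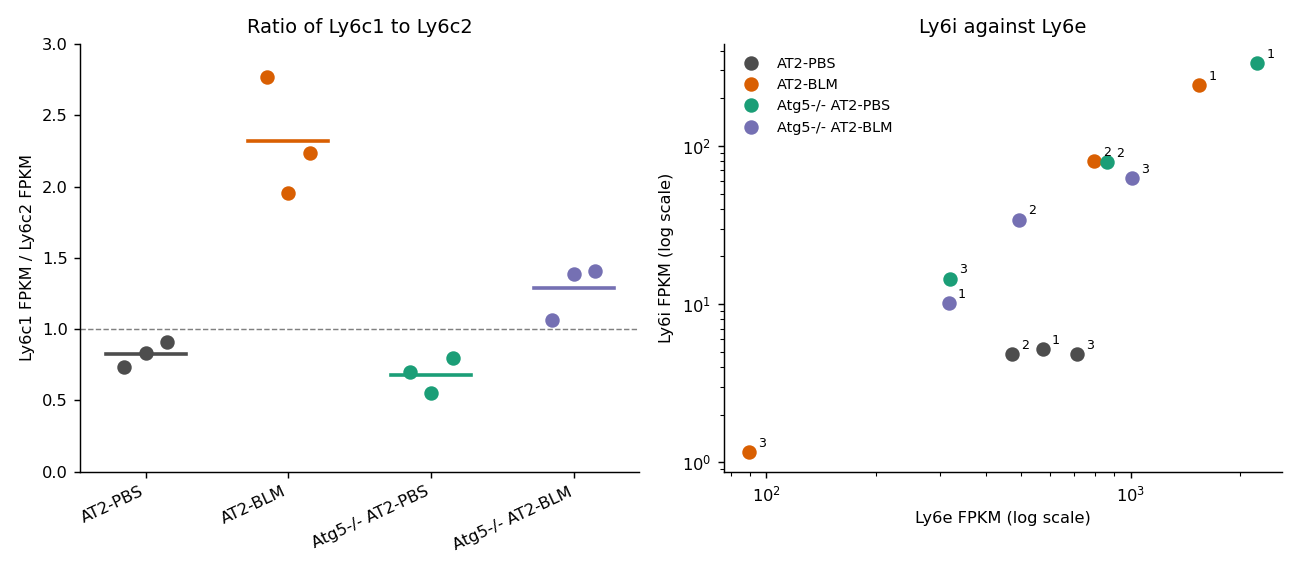
Left, the ratio of Ly6c1 to Ly6c2 FPKM in each library by group, with lines at the means and a dashed line at 1: all PBS libraries lie below 1 (0.549 to 0.908) and all BLM libraries above it (1.06 to 2.77). Right, Ly6i against Ly6e FPKM (log scales) with replicate numbers: in every group but AT2-PBS the points with more Ly6e have more Ly6i, and AT2-BLM replicate 3 is lowest in both.

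Ly6d, which marks early B-lineage cells and stratified epithelia, had the lowest mean of the set in 3 of the 4 groups, and in AT2-PBS only Ly6i was lower. It stood at 10.2, 1.14 and 4.76 FPKM in AT2-PBS replicates 1, 2 and 3 and at 15.9, 7.69 and 2.42 FPKM in AT2-BLM. Atg5-/- AT2-PBS held 38.8, 15.2 and 15.04 FPKM, and in Atg5-/- AT2-BLM at 3.14, 14.3 and 9.92 FPKM. The 3 Atg5-/- AT2-PBS libraries were above all 3 libraries of AT2-PBS and of Atg5-/- AT2-BLM and overlapped AT2-BLM at 15.9 FPKM. The log2 difference of Atg5-/- AT2-PBS against AT2-PBS was 2.08 with a standard error of 0.70 and was called (limma adjusted p = 0.088, above the threshold after adjustment). The call was lost without AT2-PBS replicate 2 (1.44), without Atg5-/- AT2-PBS replicate 1 (1.64) and with the Y-linked covariate (1.67). With BLM in Atg5-/- cells Ly6d differed by -1.30 (95% confidence interval -2.83 to 0.23) and was not called, although the ranges did not overlap.

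**Figure D3:**
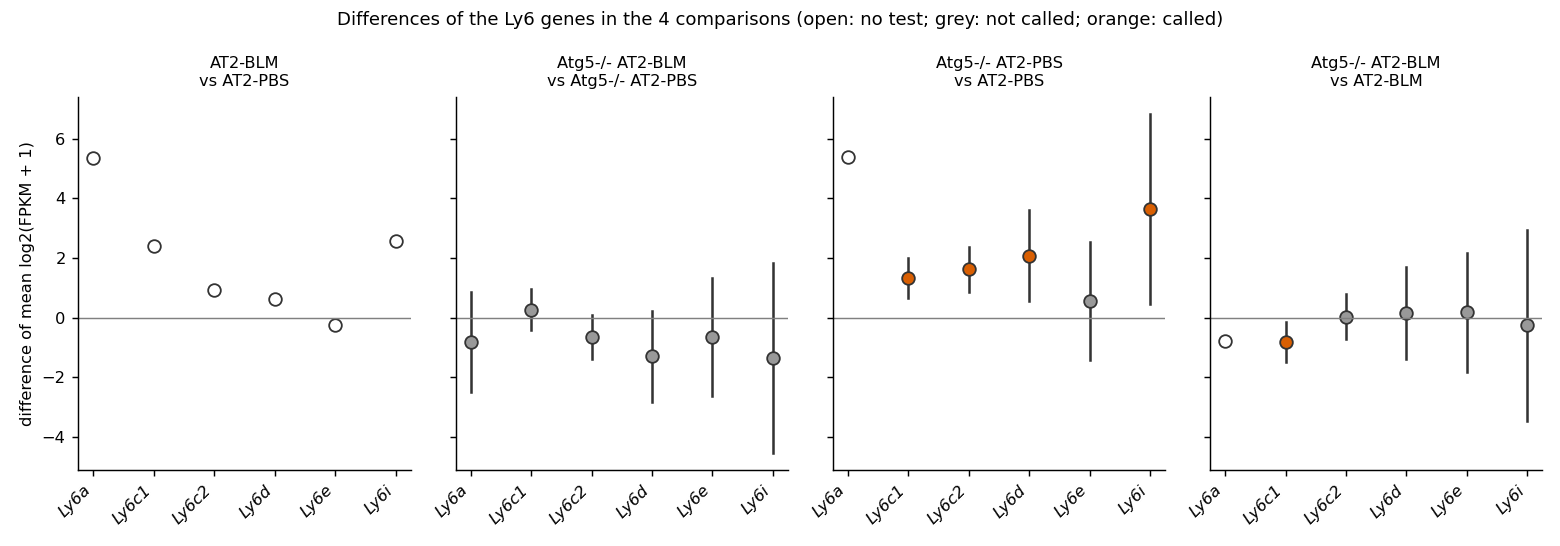
Differences of mean log2(FPKM + 1) of the 6 genes in the 4 comparisons, first group minus second. Filled points carry 95% confidence intervals from limma and are orange where called and grey where not, and open points have no test. In Atg5-/- AT2-PBS against AT2-PBS the tested values of Ly6c1, Ly6c2, Ly6d and Ly6i are orange, and in Atg5-/- AT2-BLM against Atg5-/- AT2-PBS all 6 intervals cross 0.

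Counted over the set, the comparison of Atg5-/- AT2-PBS with AT2-PBS was the one in which most genes moved. Calls required a change of 1.4-fold or more with p below 0.05 before adjustment. Of the 5 genes tested, 4 (Ly6c1, Ly6c2, Ly6d and Ly6i) were called higher and 0 lower, where 14.1% of all 10675 tested genes were called higher and 5.16% lower. Ly6c1 and Ly6c2 also passed after adjustment. The same 4 of these 5 had ranges apart and higher, against 18.1% of all genes higher and 10.8% lower. The median log2 difference of the 5 was 1.61, and that of all tested genes 0.02. The set was grouped around Ly6a, which was chosen by its rise from these same AT2-PBS libraries. Ly6c1 and Ly6c2 also share long stretches of sequence. The 4 calls are therefore not independent observations, and their count carries no test. Among all called genes 73.2% were higher, and other scalings gave 42.6% (quantile), 67.0% (median-ratio) and 97.2% (Cdh1), under each of which the same 4 genes of the set were called higher.

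With BLM in Atg5-/- cells, 0 of 6 genes were called by limma and 0 had an unadjusted p under 0.05, where 7.66% of all genes were called higher and 10.7% lower. Ranges were apart and lower for 1 gene, Ly6d, against 13.1% of all genes apart and higher and 11.8% apart and lower. Of the 6 differences, 5 were negative, and their median was -0.73 beside 0.06 for all genes. The share of called genes that were higher was 41.7%, or 51.8% (quantile), 32.4% (median-ratio) and 4.61% (Cdh1) with other scalings, and with the last of these Ly6c2 (-1.11) and Ly6d (-1.71) were called lower and Ly6c1 turned to -0.20. Without either Atg5-/- AT2-PBS replicate 3 or Atg5-/- AT2-BLM replicate 1, 1 of the 6 was called.

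With Atg5 loss under BLM, 1 of the 5 tested genes, Ly6c1, was called lower and 0 higher, where 3.12% of all genes were called lower and 2.04% higher. Ly6c1 was also the only one of the 5 with ranges apart and lower, against 8.49% of all genes lower and 4.91% higher. The median log2 difference of the 5 was 0.03, and that of all genes -0.05. This comparison uses the AT2-BLM libraries behind the choice of Ly6a, and its count carries no test. Of 9 markers of transitional alveolar epithelial cells, 8 were called lower and 0 higher here, by p before adjustment. In AT2-BLM against AT2-PBS 7 of 9 were called higher and 0 lower. In Atg5-/- AT2-PBS against AT2-PBS, where Ly6c1 rose by 1.32, 1 was called higher and 3 lower (median -0.17). With BLM in Atg5-/- cells, where Ly6c1 was not called, 3 of the markers were called higher and 0 lower (median 0.91). Their summed FPKM was 743 to 1334 in AT2-PBS, 694 to 1079.0 in Atg5-/- AT2-PBS and 772 to 1586 in Atg5-/- AT2-BLM. In AT2-BLM it was 1900, 1777 and 4351 in replicates 1, 2 and 3. Replicate 3, far above the others here, is also the AT2-BLM library without which the Ly6c1 call was lost. The part of these markers in the Ly6c1 result was not tested. With Atg5 loss under BLM 39.6% of all called genes were higher, or 48.2%, 50.7% and 79.8% with quantile, median-ratio and Cdh1 scaling.

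In AT2-BLM against AT2-PBS, the comparison behind the choice of Ly6a, the ranges of 3 of the 6 genes (Ly6a, Ly6c1 and Ly6c2) were apart and higher, and nothing is read from this count. Across all genes 28.9% were apart and higher and 11.3% apart and lower, and 20.6% were called higher and 7.77% lower. The log2 differences were 5.37 for Ly6a, 2.40 for Ly6c1, 0.94 for Ly6c2, 0.62 for Ly6d, -0.27 for Ly6e and 2.56 for Ly6i, beside a median of 0.17 over all genes. Leaving out 1 library at a time gave -0.01 to 1.23 for Ly6d, -1.11 to 0.94 for Ly6e and 1.16 to 4.57 for Ly6i, the upper value of each without AT2-BLM replicate 3. The share of called genes that were higher was 72.6%, or 46.9%, 53.0% and 43.4% with quantile, median-ratio and Cdh1 scaling. Set beside these, the BLM differences in Atg5-/- cells were -0.82, 0.26, -0.65, -1.30, -0.65 and -1.35 in the same order, and the difference between genotypes was not tested.

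The presence of Y-linked transcripts differed between the groups, and its part in the results was examined as a covariate and within the libraries without and with them, both added after the data were seen. With the covariate, Ly6c1 (1.60) and Ly6c2 (1.76) remained called in Atg5-/- AT2-PBS against AT2-PBS and Ly6d and Ly6i did not, and Ly6c1 remained called lower in Atg5-/- AT2-BLM than in AT2-BLM (-0.95). No Atg5-/- AT2-PBS library held these transcripts. The single AT2-PBS library without them, replicate 1, was below all 3 Atg5-/- AT2-PBS libraries for Ly6a, Ly6c1, Ly6c2, Ly6d and Ly6i, with mean log2 differences from 0.97 (Ly6d) to 5.15 (Ly6a). Under BLM, Atg5-/- AT2-BLM replicate 1 without these transcripts stood against 2 AT2-BLM libraries. With them, 2 Atg5-/- AT2-BLM libraries stood against AT2-BLM replicate 3 alone. That library was the lowest of all 12 for Ly6e (89.7 FPKM) and Ly6i (1.16 FPKM). The difference with Atg5 loss, resting on 1 library of a group in each set, had opposite signs without and with the transcripts for 5 of the 6 genes. It was 0.97 and -1.84 for Ly6a, 0.44 and -0.74 for Ly6c2, -1.55 and 1.92 for Ly6d, -1.80 and 2.96 for Ly6e and -3.66 and 4.45 for Ly6i, while Ly6c1 was lower in both (-0.68 and -1.42).

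Along the locus from Psca to Gpihbp1, 13 other annotated genes were in the table, of which 6 passed the filter. Ly6g, a neutrophil marker gene and the next tested gene after Ly6c2, named here after its values were seen, was listed at 0 in all 3 AT2-PBS libraries and at 1.17, 2.71 and 1.01 FPKM in Atg5-/- AT2-PBS. Lypd2, which lies beyond Ly6d toward Psca, was at 4.61 to 7.44 FPKM in AT2-PBS, at 18.6 to 36.1 in Atg5-/- AT2-PBS and at 0.681 to 4.92 in Atg5-/- AT2-BLM. Ly6k, which lies between Ly6d and Ly6e, was called in none of the comparisons, and its values were 3.82 to 29.2 FPKM in AT2-PBS and 4.95 to 14.6 FPKM in Atg5-/- AT2-PBS. In AT2-BLM, Ly6g was at 0.725, 1.73 and 7.23 FPKM and Lypd2 at 0.658 to 1.32 FPKM. Of the 6 neighbours tested, 3 were called higher in Atg5-/- AT2-PBS against AT2-PBS, where 14.1% of all genes were, and 0 lower. In AT2-BLM against AT2-PBS 2 were called higher, where 20.6% of all genes were, and 1 lower. With BLM in Atg5-/- cells and with Atg5 loss under BLM, 0 were called higher and 1 lower each.

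**Figure D4:**
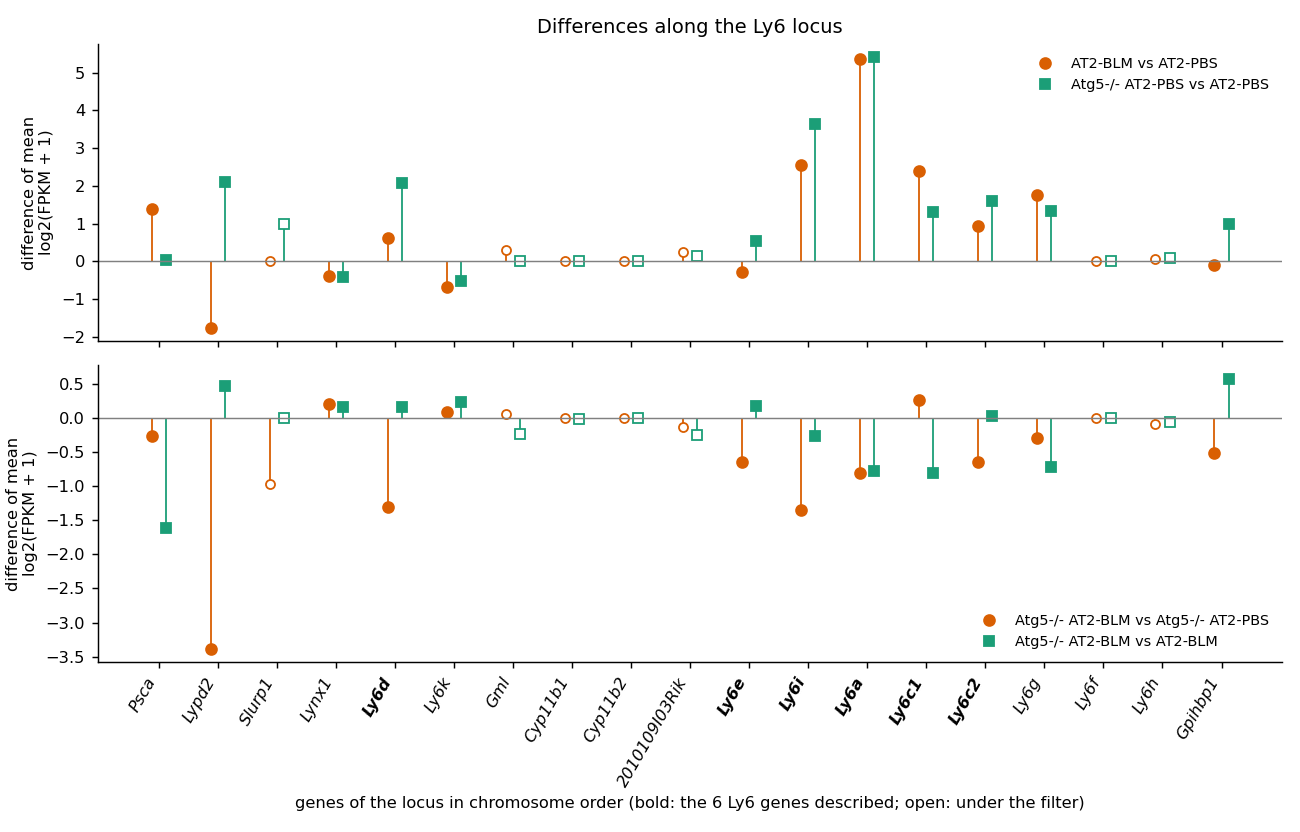
Differences of mean log2(FPKM + 1) for the genes of the locus in chromosome order, equally spaced, with the 6 Ly6 genes in bold and open symbols for genes under the filter. In the upper panel the values from Ly6i to Ly6g are all above 0 in both comparisons with AT2-PBS, with Ly6a highest at 5.37 and 5.40, and in the lower panel Lypd2 falls furthest, to -3.38, with BLM in Atg5-/- cells.

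Other genes of the superfamily were less often measurable. Of 40 listed Ly6/uPAR genes outside the set, 34 were in the table and 13 passed the filter. In Atg5-/- AT2-PBS against AT2-PBS 6 of the 13 were called higher, where 14.1% of all genes were, and 0 lower (median 0.17). Plaur, the urokinase receptor, led at 55.8 ± 3.64 against 1.71 ± 1.26 FPKM (SD, n = 3, limma adjusted p = 0.00012). In Atg5-/- AT2-BLM against Atg5-/- AT2-PBS 2 were called higher and 3 lower (median -0.07), with the largest rise in Ly6g6c (1.10) and the largest fall in Lypd2 (-3.38). Under BLM, Atg5 loss gave 0 higher and 2 lower, where 3.12% of all genes were called lower. Of these Psca fell most (-1.62, limma adjusted p = 0.61). It was at 0.0617 to 0.602 FPKM in Atg5-/- AT2-BLM and at 1.22 to 10.2 FPKM in AT2-BLM, with a median of 1.62. In AT2-BLM against AT2-PBS 6 were called higher, where 20.6% of all genes were, and 1 lower, with Plaur (2.94) and Lypd2 (-1.75) at the ends.

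Calls among the enzymes that build the GPI anchor and move it to proteins depended on the scaling. Of 24 tested, 0 were called higher and 1 lower in Atg5-/- AT2-PBS against AT2-PBS (median -0.01), the lower being Pigq (-0.62), while quantile scaling gave 0 and 5 and Cdh1 scaling 2 and 0. In Atg5-/- AT2-BLM against Atg5-/- AT2-PBS 3 were called higher, where 7.66% of all genes were, and 0 lower, with Pigo (0.64) the largest, but with scaling to Cdh1 0 were higher and 5 lower. In AT2-BLM against AT2-PBS 5 were called higher, where 20.6% of all genes were, and 1 lower, led by Pigt (0.72) and Mppe1 (-0.88), and 0 were higher with each of the 3 other scalings. Atg5 loss under BLM gave 0 higher and 1 lower, Pigf (-0.54, limma adjusted p = 0.61).

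Genes known to respond to interferon, listed without any gene of the set, moved as a block in the comparisons with AT2-PBS. Of 33 tested, 32 were called higher and 0 lower in Atg5-/- AT2-PBS against AT2-PBS, with a median log2 difference of 2.04 beside 0.02 for all genes. Isg15, a ubiquitin-like protein induced by interferon, rose most, to 151, 202 and 11.4 FPKM from 0.830, 1.67 and 2.92 FPKM (limma adjusted p = 0.0021). In AT2-BLM against AT2-PBS 26 were called higher and 0 lower (median 1.4002), again led by Isg15 (3.49). Of the alternatives, quantile or Cdh1 scaling or leaving out AT2-BLM replicate 1 gave 16 to 17 called higher. Over all alternatives the number ran from 14 to 30.

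With BLM in Atg5-/- cells, 0 of the 33 were called higher and 13 lower (median -1.10), with Ifit3 falling most (-2.54), and the count was 30 without Atg5-/- AT2-PBS replicate 3, 6 without replicate 2 of that group, 6 with the Y-linked covariate and 3 with adjusted p. With Atg5 loss under BLM, 0 were called higher and 1 lower, Cxcl10 (-1.42, limma adjusted p = 0.62). The alternatives gave 0 to 7 lower, with 7 when only the compared groups were fitted. The summed FPKM of the list was 219 to 319 in AT2-PBS, 590.4 to 1218 in AT2-BLM and 542 to 989 in Atg5-/- AT2-BLM. In Atg5-/- AT2-PBS it was 2004, 2002 and 427 in replicates 1, 2 and 3, and replicate 3, lowest here, was also the lowest library of its group for each of the 6 Ly6 genes. Replicate 3 also had the lowest sum in AT2-BLM (590.4) and in Atg5-/- AT2-BLM (542). In AT2-BLM it was lowest for Ly6d, Ly6e and Ly6i but highest for Ly6c1 (241 FPKM) and Ly6c2 (108 FPKM). In Atg5-/- AT2-BLM it was lowest for Ly6a and Ly6c2 but highest for Ly6e (1009.7 FPKM) and Ly6i (62.3 FPKM).

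Interferon receptors and their transducers followed with fewer genes. Of 18 tested, 7 were called higher, where 14.1% of all genes were, and 0 lower in Atg5-/- AT2-PBS against AT2-PBS (median 0.26). Irf7, a transcription factor of the interferon response, led at 69.1 ± 50.6 against 3.42 ± 2.16 FPKM (SD, n = 3, limma adjusted p = 0.011). With BLM in Atg5-/- cells 3 were called higher, Socs3 most (1.29), and 5 lower, Irf8 most (-2.17). The number lower was 8 with Cdh1 scaling, 1 with adjusted p or the Y-linked covariate, and 2 without Atg5-/- AT2-PBS replicate 1 or 2 or Atg5-/- AT2-BLM replicate 2. In AT2-BLM against AT2-PBS 6 were called higher, where 20.6% of all genes were, and 0 lower, again with Irf7 leading (2.57). Atg5 loss under BLM gave only 1 call, a lower Ifngr2 (-0.57, limma adjusted p = 0.61).

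Markers of other cells differed between the groups as well. With Atg5 loss under PBS, all 8 tested fibroblast markers, 7 of 8 pan-leukocyte, 10 of 11 monocyte and macrophage, 6 of 7 lymphocyte, 6 of 7 airway and all 10 hepatocyte markers were called higher and 0 of each lower, and 3 of 8 endothelial markers were called higher. In Atg5-/- cells with BLM against PBS, where 0 of the 6 Ly6 genes were called, 6 of 8 fibroblast, 7 of 8 pan-leukocyte, 8 of 11 monocyte and macrophage, 6 of 7 lymphocyte, all 7 airway and 7 of 10 hepatocyte markers were called lower. In AT2-BLM against AT2-PBS 6 of 8 pan-leukocyte, 7 of 11 monocyte and macrophage and 4 of 7 lymphocyte markers were called higher. So were 4 of 8 endothelial, 2 of 8 fibroblast and 9 of 10 hepatocyte markers, with 0 lower in each of these lists. Of the airway markers 5 of 7 were called lower and 0 higher. Over all genes 20.6% were called higher and 7.77% lower in this comparison. The summed pan-leukocyte markers were 391 to 498 FPKM in Atg5-/- AT2-PBS, 72.3 to 114 in AT2-PBS, 88.6 to 158 in AT2-BLM and 117 to 192 in Atg5-/- AT2-BLM, and none of them was at 0 throughout a group. The fibroblast sums were 120.1 to 127, 6.47 to 17.0, 14.6 to 54.9 and 11.2 to 33.0 FPKM in the same order. Leukocytes and endothelium are known sources of several Ly6 transcripts, and the part of these cells in the Ly6 results was not tested.

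Endothelial markers summed to 145 to 160.4 FPKM in AT2-PBS, 148 to 177 in Atg5-/- AT2-PBS, 227 to 237 in AT2-BLM and 203 to 231 in Atg5-/- AT2-BLM. Esam alone made up 58.9% to 92.1% of these sums. Without it they were 11.5 to 42.4, 24.0 to 72.8, 39.6 to 45.9 and 50.8 to 57.4 FPKM in the same order, and the PBS and BLM ranges of each genotype overlapped. The defining endothelial gene Cdh5 had means of 0.0981 and 0.139 FPKM in AT2-PBS and AT2-BLM and of 0.452 and 0.306 in the Atg5-/- groups with PBS and with BLM. The part of endothelial RNA in the ratio of Ly6c1 to Ly6c2 was not tested. Monocyte and macrophage markers summed to 2474 to 5179 FPKM in AT2-PBS and to 1740.1 to 3768 in Atg5-/- AT2-PBS. The lysozyme gene Lyz1 made up 95.1% of these sums over all libraries, so they mostly follow Lyz1. The next largest markers, Fcer1g and Cd68, had their lowest group means in AT2-PBS (6.92 and 8.47 FPKM), where both Ly6c genes were also lowest. Their highest were in Atg5-/- AT2-PBS (228.6 and 109.7 FPKM), as was that of Ly6c2. Ly6c1 instead had its highest mean in AT2-BLM (158 FPKM), where Fcer1g and Cd68 were at 17.4 and 29.5 FPKM. Of the 11 tested markers of this list, 10 were called higher and 0 lower between these groups. The part of monocyte and macrophage RNA in the Ly6c values was not tested. Pecam1 (CD31), which the gate should remove, was at 0.0853 to 5.82 FPKM in AT2-PBS, 6.12 to 6.49 in AT2-BLM, 1.17 to 13.1 in Atg5-/- AT2-PBS and 6.64 to 7.22 in Atg5-/- AT2-BLM. Cd34 was at 0.0385 to 0.943 FPKM in AT2-PBS, 2.34 to 3.82 in AT2-BLM, 5.47 to 8.001 in Atg5-/- AT2-PBS and 2.09 to 2.30 in Atg5-/- AT2-BLM, its AT2-PBS libraries lowest as for Ly6a. Epcam, the positive gate gene, was at 102 to 179 FPKM in all libraries.

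**Figure D5:**
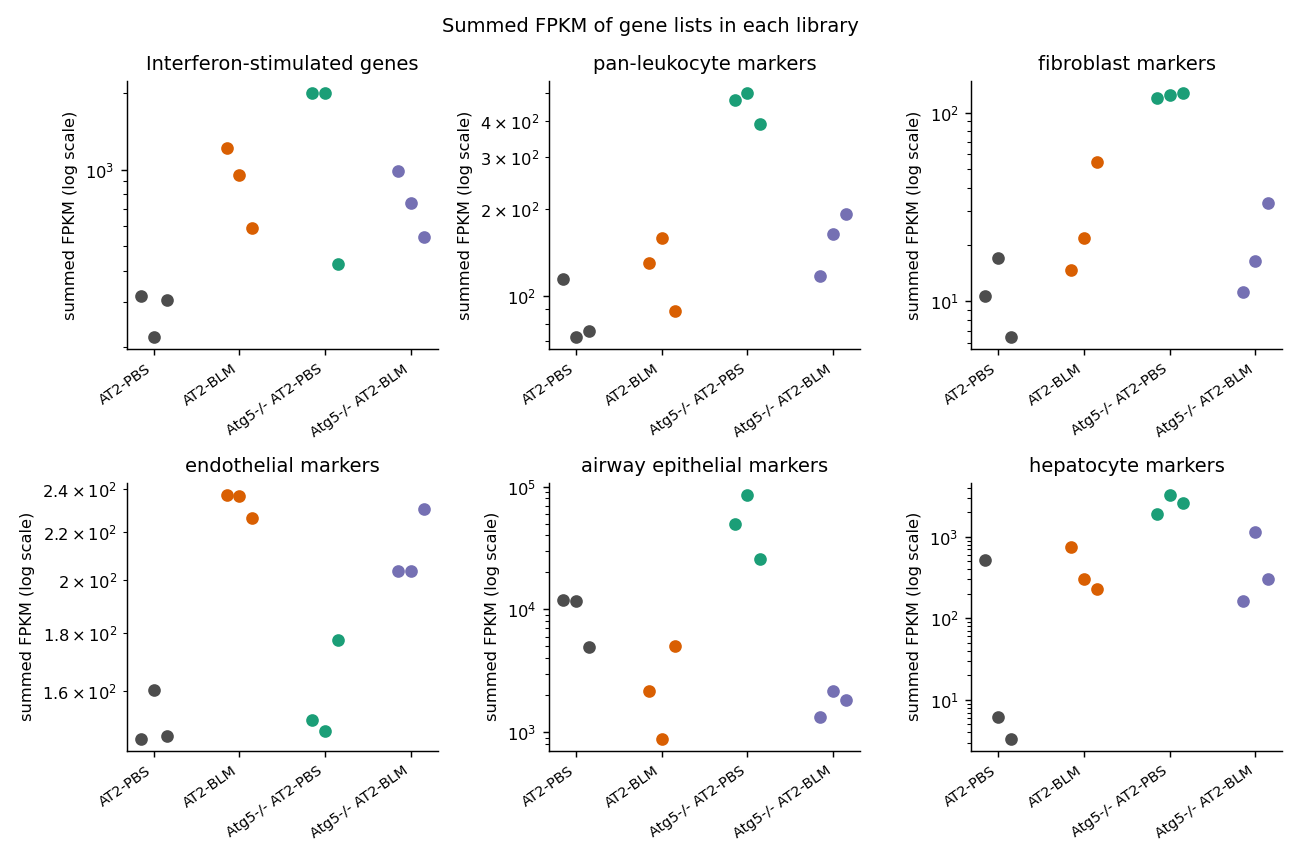
Summed FPKM (log scale) of gene lists in each library, by group, replicates 1 to 3 from left to right. Interferon-stimulated genes reach about 2004 in Atg5-/- AT2-PBS replicates 1 and 2 and 427 in replicate 3, leukocyte and fibroblast markers are highest in all 3 libraries of that group, and the endothelial sum, set mostly by Esam, is higher in BLM than in PBS libraries.

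The genes whose pattern over the 12 libraries was most like that of Ly6a, by the mean absolute difference of standardised log2 values, were Nkx2-9 (0.30), Nqo1 (0.31) and Zfpl1 (0.32). Nkx2-9, a homeobox transcription factor gene, was at 0.243 to 0.816 FPKM in AT2-PBS and at 21.7 to 56.5 FPKM in the other 9 libraries, a step like that of Ly6a at a far lower level. Nqo1, a quinone reductase, was at 2.26 to 2.70 FPKM in AT2-PBS and at 7.16 to 42.8 FPKM elsewhere. Closest to Ly6c1 were Vill (0.16), Pfn1 (0.21), which encodes the actin-binding profilin, and B3gnt3 (0.23), and closest to Ly6e were Ly6i (0.45), Tspan1 (0.49) and Slc39a4 (0.50). The fits for Ly6e were looser than those for Ly6a and Ly6c1, and these likenesses describe 12 libraries of 4 groups and carry no test.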

How the data were processed

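RNA of sorted AT2 cells was measured in 12 libraries, 3 for each of the 4 groups, with groups and replicate numbers taken from the sample titles. Per the methods, the authors prepared stranded mRNA libraries, trimmed reads with Trimmomatic (0.36 in the submitters' processing notes) and deposited FPKM per gene from Cufflinks (2.2.1) on mm9. The methods name STAR as aligner and the processing notes HISAT2 (2.2.1.0), and HTSeq (0.9.1) is listed with no stated role. Whether the deposited FPKM include the DESeq normalization that the methods name is not given in the sources used here.

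The test covered 10675 of 21878 genes, those at 1 FPKM or more in 3 or more libraries. Values of log2(FPKM + 1) went into limma 3.58.1 (lmFit, eBayes with a mean-variance trend) in R 4.3.3, all 12 libraries in 1 fit, after the test was checked on simulated data. Fold changes on this scale understate those of low genes. Calls required p below 0.05 before adjustment and a change of 1.4-fold or more, the study's criteria, and Benjamini-Hochberg adjusted p over all tested genes are given beside it. Each limma p-value sets a difference against the spread between libraries, estimated for each gene over all 4 groups. The Ly6c ratio was tested with an exact permutation test, which over 3 against 3 cannot go below 0.1.

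The Ly6 genes, gene lists, designs and alternatives were chosen with earlier results of these data known. Named genes are the 6 Ly6 genes, the 3 genes most like Ly6a, Ly6c1 and Ly6e, the called gene of each pathway list with the largest rise and fall, gate genes, Atg5 and markers that move with a result. The Y-linked genes, Sftpc, Lyz1, Fcer1g, Cd68, Ly6g and Ly6k were named after their values were seen. Alternatives were a pseudocount of 0.1, no filter, quantile, median-ratio and Cdh1 scaling, a fit of the compared groups alone, no trend, a replicate block, adjusted p, a fold of at least 2, each library left out and, added later, a Y-linked covariate (summed FPKM over 1). Replicate numbers of the titles were not used to pair the libraries in the main fit. Sequences came from GENCODE vM1 (mm9) and RefSeq (GRCm38.p6). Stretches of 50 bases were counted over GENCODE protein-coding transcripts. Plots used matplotlib 3.10.9 (Python 3.11.15). No read counts were used, so no interval for counting error is given.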

Additional observations from a re-analysis of the deposited data

Results flagged for a closer look

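The difference of Ly6c1 with Atg5 loss had opposite signs with PBS and with BLM: every Atg5-/- AT2-PBS library was above the AT2-PBS mean (log2 difference 1.32) and every Atg5-/- AT2-BLM library below the AT2-BLM mean (-0.81). The second difference had a limma adjusted p of 0.62, and its call was lost without AT2-BLM replicate 3, without Atg5-/- AT2-BLM replicate 1 and with Cdh1 scaling. The difference of Ly6c2 with BLM also had opposite signs in the genotypes: every AT2-BLM library was above the AT2-PBS mean (0.94) and every Atg5-/- AT2-BLM library below the Atg5-/- AT2-PBS mean (-0.65). Of these, 0.94 is given without a test and -0.65 was not called, and replicate 3 of Atg5-/- AT2-PBS, at 57.8 FPKM, lay below all 3 Atg5-/- AT2-BLM libraries. Whether the differences themselves differ was not tested for either gene. Groups of 3 libraries were too small to test for outliers.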

How the results depend on the processing

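The Ly6a difference in AT2-BLM against AT2-PBS (5.37) lay between 5.03 and 5.74 under every alternative. Of the 5 genes tested in Atg5-/- AT2-PBS against AT2-PBS, 4 were called, 2 with adjusted p, 2 with the Y-linked covariate (chosen after seeing the data) and 2 to 4 when 1 library was left out. With BLM in Atg5-/- cells the count of 0 became 2 with scaling to Cdh1, 1 with only the compared groups fitted (Ly6d), and 0 to 1 with 1 library left out. With Atg5 loss under BLM the count of 1 became 0 with scaling to Cdh1, with adjusted p and with a fold change of at least 2, and was 0 to 1 with 1 library left out. The calls in the pathway lists (125) became 72 with adjusted p. The causes were not tested.

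Signs turned only for differences that had not been called. With BLM in Atg5-/- cells, Ly6c1 gave -0.20 when scaled to Cdh1 and, under the Y-linked covariate, -0.020. With Atg5 loss under BLM that covariate gave -0.051 for Ly6c2 and 0.19 for Ly6i. With 1 library left out, BLM in Atg5-/- cells gave -1.63 to 0.34 for Ly6a, -0.026 to 0.50 for Ly6c1 and -1.35 to 0.044 for Ly6e, and Ly6e ranged from -0.14 to 1.26 in Atg5-/- AT2-PBS against AT2-PBS. Atg5 loss under BLM then gave -0.16 to 0.40 for Ly6c2, -0.45 to 0.70 for Ly6d, -1.03 to 1.01 for Ly6e and -2.27 to 1.14 for Ly6i.

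Same-numbered libraries correlated at -0.239 to 0.227 in their deviations from group means. The values were 0.045 to 0.191 between AT2-BLM and AT2-PBS and 0.0036 to 0.227 between the Atg5-/- groups. Between genotypes they were -0.239 to -0.0094 with PBS and -0.163 to 0.114 with BLM. Values this small cannot decide whether the numbers mark pairs or a shared batch. A replicate block left the counts of called Ly6 genes at 4, 0 and 1. These are for Atg5-/- AT2-PBS against AT2-PBS, BLM in Atg5-/- cells and Atg5 loss under BLM. The Ly6a difference in AT2-BLM against AT2-PBS stayed at 5.37. Scaling to Cdh1 moved the median of all genes to 0.34 in Atg5-/- AT2-PBS against AT2-PBS and to -0.32 with BLM in Atg5-/- cells. Read depth is unknown, which limits what can be said of values near 0.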
